A study of Rattus norvegicus with 6 samples.

Results

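Rat chromosome 7 was examined as a partner of a gene promoter that lies on chromosome 13, the viewpoint of a 4C-seq experiment. Its members were all rows of the 6 deposited tables whose first column named chromosome 7 of the rn5 build. There were 40534 such rows in each library, 1 per EcoRI fragment, of 794144 to 794360 rows per table. The same 40534 fragments were listed in every library, and they made up part of the 759990 fragments that lie outside chromosome 13.

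In 4C-seq, formaldehyde fixes the chromatin, EcoRI cuts it, nearby ends are ligated, and whatever fragment has become joined to the viewpoint is read by sequencing. Cardiac endothelial cells at passage 2 were used, pooled from male and female rats, and were fixed with 2% formaldehyde for 10 min. The first group was the Dahl salt-sensitive strain SS/JrHsdMcwi, called SS, with 3 libraries. The second was SS-13BN/Mcwi, called SS13BN, a consomic strain whose chromosome 13 comes from the Brown Norway rat and whose other chromosomes, 7 among them, come from SS, also with 3 libraries. Whether libraries of 1 strain stem from different animals or cultures is not stated in the labels. The p-values of comparisons across libraries therefore reflect only how far these libraries spread, which may be technical. Endothelial markers could not be examined, since the assay measures DNA contacts and not expression.

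In the nucleus each chromosome fills a territory of its own, and most ligations of a viewpoint are with its own chromosome. Ligations with another chromosome are rarer and are spread over it. As general background, active, gene-rich chromatin tends to be found near other active chromatin, and inactive chromatin near the nuclear lamina. RefSeq's GRCr8 gene table places 1373 of its 23154 protein-coding genes on chromosome 7. Among them are Angpt1, a ligand of the endothelial receptor Tie2, Acvrl1, an endothelial receptor of the TGF-beta family, and Pdgfb, a growth factor that endothelial cells release to recruit pericytes. Also there are Cyp11b1 and Cyp11b2, which make corticosterone and aldosterone, the growth regulator Myc and the Hoxc cluster of developmental regulators. The lists looked up held 15 vascular, 9 steroid and drug metabolism, 7 growth and cell cycle and 15 Hoxc or keratin genes. They were drawn up from genes known to lie on rat chromosome 7. That all are found there is therefore no result, but only a check against that table. Its positions belong to another build than the fragments, so no window below was matched to a gene and no sequence of a window was read.

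The deposited score of a fragment on chromosome 7 is a z-score. It counts how many fragments were captured from 250 fragments before to 250 after, and sets that count against the share of the chromosome. Captured is taken to mean that the fragment had a read, though the labels name no read filter or threshold. The state of every fragment was recovered from these scores. Capture is a yes or no per fragment, so a captured fragment joined often and one joined rarely count alike. A capture share thus understates differences in contact where capture is dense. As a whole, chromosome 7 was captured close to the level of the other chromosomes. In SS 1 the captured share was 12.4%, with a 95% Wilson interval of 12.1% to 12.7%. SS 2 had 9.90% (9.62% to 10.2%) and SS 3 had 11.6% (11.3% to 12.0%). For SS13BN 1, 2 and 3 the shares were 9.82% (9.54% to 10.1%), 16.9% (16.5% to 17.2%) and 8.67% (8.40% to 8.94%). These intervals cover counting error only. SS13BN 2 stood apart with the highest share, and it did so on the other chromosomes too, at 17.5% against 8.77% to 12.3% in the other libraries.

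Divided by the share of the other 19 chromosomes in the same library, capture of chromosome 7 was 1.0, 0.991 and 0.978 in the SS libraries 1 to 3, and 0.990, 0.967 and 0.988 in the SS13BN libraries 1 to 3. All but SS 1 were below 1, by at most a few percent. These 19 include X, the lowest chromosome, at 0.748 ± 0.022 (SD, n = 6) times the library's share. Against the other autosomes alone, chromosome 7 stood at 0.9847, 0.9739 and 0.9606 in SS 1 to SS 3. In SS13BN 1 to SS13BN 3 it stood at 0.9701, 0.9502 and 0.9725. It was thus below 1 in every library by this measure, which was not tested. Against all 19, the mean log2 ratio was -0.020 ± 0.018 (SD, n = 6), below 0 in 5 of 6 libraries. It did not pass an exact two-sided sign-flip permutation test (p = 0.0625, Benjamini-Hochberg adjusted p = 0.0938 over 3 comparisons). Against chromosome 6, the next in name order, the log2 ratio was -0.022 ± 0.038 (SD, n = 6), below 0 in 4 of 6 libraries (exact permutation p = 0.219, adjusted p = 0.219). Against chromosome 8 it was -0.13 ± 0.041 (SD, n = 6), and chromosome 7 was the lower in 6 of 6 libraries. Its exact permutation p of 0.03125 is the smallest that 6 libraries can give, and the adjusted p was 0.0938, so this difference did not pass either. Ordered by mean level, chromosome 7 was 7th from the lowest of 20 chromosomes, between chromosomes 18, at 0.931 ± 0.030 (SD, n = 6) times the library's share, and 4, at 1.0 ± 0.022. Its own 0.987 ± 0.012 came from libraries between 0.968 and 1.0, which overlapped those of chromosome 4, between 0.982 and 1.04.

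**Figure D1:**
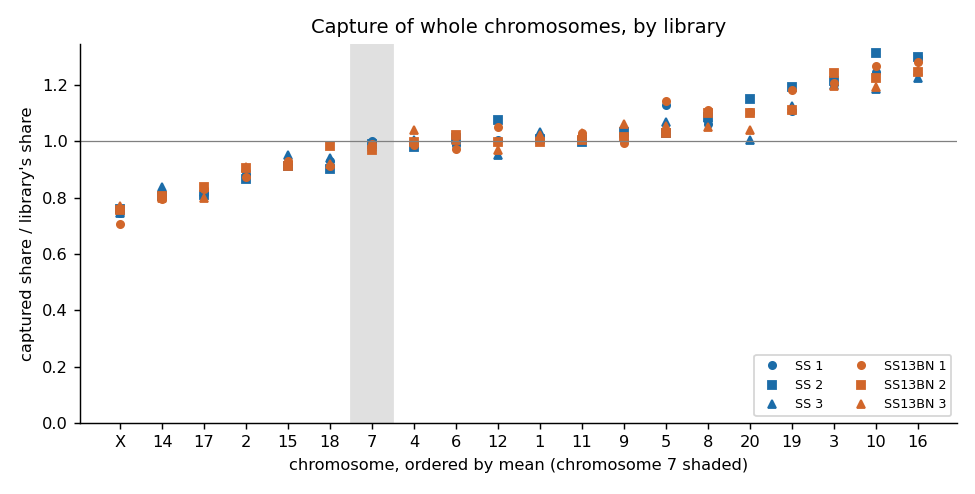
Captured share of each chromosome divided by the library's share over the 20 chromosomes scored alike, 1 point per library, colour for strain and shape for replicate number. Chromosome 7, shaded, lies between 0.968 and 1.0, with SS 1 just above the line at 1 and the other libraries below it.

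No difference between strains was detectable in the level of the whole chromosome. Relative capture averaged 0.990 ± 0.0122 (SD, n = 3) for SS. For SS13BN it averaged 0.982 ± 0.0131 (SD, n = 3). The difference, SS13BN minus SS, was -0.00868, with an exact two-sided permutation p of 0.4, where 3 against 3 libraries cannot go below 0.1. The values of both strains overlapped.

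Along its length, chromosome 7 was far from even. Levels are given here as capture ratios, the captured share of a stretch divided by the library's share over all 20 chromosomes. The first 30 Mb were low, with ratios of 0.690, 0.749 and 0.706 in SS 1 to SS 3 and 0.659, 0.702 and 0.764 in SS13BN 1 to SS13BN 3. From 110 Mb to the end the ratios were 1.48, 1.37 and 1.28 in SS and 1.5, 1.28 and 1.29 in SS13BN. Every library was thus higher in the distal stretch than in the proximal one, and the 12 values do not overlap. Between these stretches the ratio was 0.963 ± 0.013 (SD, n = 6). The bounds at 30 and 110 Mb were chosen after the values were seen, so the contrast is a description and was not tested.

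A split at the midpoint needs no chosen bound, but its parts hold these same stretches, so it adds no separate support. Split at the midpoint of the chromosome, 71750943, the part above had 1.34, 1.31 and 1.27 times the capture of the part below in SS 1 to SS 3, and 1.34, 1.23 and 1.26 times in SS13BN 1 to SS13BN 3. The mean was 1.29 ± 0.0474 (SD, n = 6). Such a lean was not particular to chromosome 7. By the same split, chromosomes 14, 12, 3 and 1 had higher means, from 1.32 ± 0.016 for chromosome 1 to 1.53 ± 0.058 for chromosome 14 (SD, n = 6), and chromosome 17 leaned the other way, at 0.553 ± 0.039.

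In bins of 10 Mb, the highest capture was from 120000001 to 130000000. Its ratio was 1.81, 1.83 and 1.63 in SS 1 to SS 3 and 1.96, 1.63 and 1.65 in SS13BN 1 to SS13BN 3, a mean of 1.75 ± 0.137 (SD, n = 6). The last, shorter bin, from 140000001 to 143501887, followed at 1.46 ± 0.159, and that from 110000001 at 1.24 ± 0.143. Between them, the bin from 130000001 stood lower, at 1.17 ± 0.0730, and the bins from 60000001 and 70000001 reached 1.21 ± 0.0760 and 1.16 ± 0.0568. The bin from 110000001 and these 3 overlapped among libraries. The lowest bin was the first, at 0.543 ± 0.0648 (SD, n = 6), with ratios from 0.462 in SS13BN 1 to 0.649 in SS 2. The second bin, at 0.750 ± 0.0568, and that from 80000001, at 0.794 ± 0.0541, were next. No library of the first bin reached the lowest library of the second, 0.703.

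**Figure D2:**
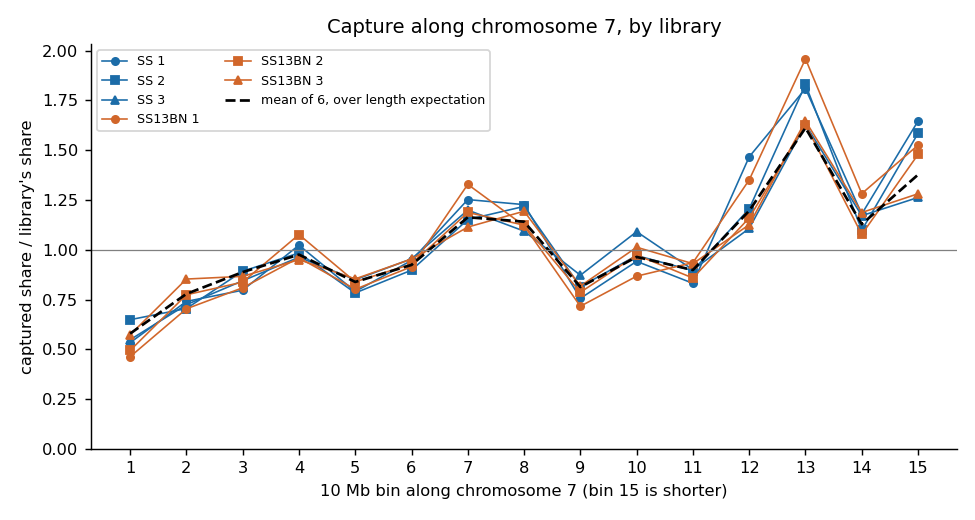
Capture ratio in bins of 10 Mb along chromosome 7, 1 line per library, with the dashed line showing the mean of 6 libraries over the expectation from fragment length. All libraries are lowest in bin 1, between 0.462 and 0.649, and highest in bin 13, between 1.63 and 1.96.

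Fragment length moves with this pattern. Long fragments were captured more often, on chromosome 7 as elsewhere. Fragments under 500 bp had a ratio of 0.518 ± 0.0315 (SD, n = 6) on chromosome 7 and 0.525 ± 0.0353 on other chromosomes. In the second-longest class, from 8000 bp up, it was 1.5 ± 0.0713 on chromosome 7 and 1.5 ± 0.0901 elsewhere. In the longest class, which held 1557 fragments of chromosome 7, the ratio was 1.35 ± 0.121, against 1.23 ± 0.0887 elsewhere. Chromosome 7 was the higher there in 6 of 6 libraries. Over the capture of fragments of like length elsewhere, this longest class stood at 1.08 ± 0.0446 (SD, n = 6). The class that begins at 2000 bp, with 9269 fragments of chromosome 7, went the other way. There chromosome 7 was the lower in 6 of 6 libraries, at 1.06 ± 0.0334 against 1.12 ± 0.0161 elsewhere. In the remaining classes the libraries differed in direction. None of these differences was tested. The median fragment was 2197 bp on chromosome 7 and 2189 bp elsewhere. Within the chromosome it ran from 1771 bp in the first bin to 3171 bp in the bin from 120000001. Divided by the capture that other chromosomes gave fragments of like length, the first bin stood at 0.579 ± 0.0692 and that from 120000001 at 1.61 ± 0.137 (SD, n = 6). The first remained the lowest and the other the highest of the 15 bins. By that measure the part above the midpoint had 1.25 ± 0.0473 times the level of the part below, higher in 6 of 6 libraries.

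**Figure D3:**
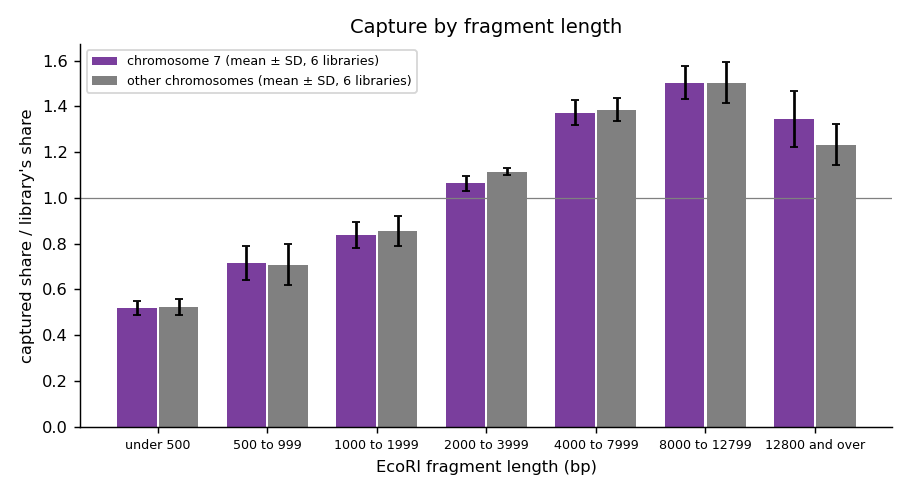
Capture ratio by length of the EcoRI fragment (bars, mean of 6 libraries, error bars SD) on chromosome 7 and on the other chromosomes. In both, the ratio rises from 0.518 and 0.525 under 500 bp to 1.5 in the second-longest class and is lower again in the longest, at 1.35 and 1.23.

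The ends of the chromosome differed from each other. The first 3 Mb had a ratio of 0.743 ± 0.0757 (SD, n = 6), with 49 to 104 of 835 fragments captured, and the last 3 Mb had 1.48 ± 0.167, with 80 to 192 of 740 captured. The high level stopped short of the very end, since the window from 143000001 to 143500000 had only 2 to 6 fragments captured per library, a ratio of 0.312 ± 0.0875 (SD, n = 6). The deposited scores near both ends are low by construction. In their running window, positions past the end of the chromosome counted as not captured, 250 of them for the outermost fragment. The outermost score at the distal end was thus between -4.95 and -3.33 in the 6 libraries, although 6.80% to 16.8% of the last 250 fragments were captured, not far from the shares of the whole chromosome. At the proximal end the outermost scores were -6.51 to -4.13, with 5.60% to 12.0% of the first 250 fragments captured.

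Contact windows were sought with an exact one-sided binomial test of each 500 kb window against the library's share. It is run within 1 library and treats the fragments as independent trials. Its p-values thus hold no spread between libraries and take no account of likeness between neighbouring fragments. A window counted for a strain when its Benjamini-Hochberg adjusted p was under 0.05 in all 3 libraries of that strain. Chromosome 7 had few. Of its 288 windows, 4 were contact windows in SS, or 1.39%, where 1.86% of all 5332 windows were. In SS13BN 3 were, or 1.04%, where 1.58% of all windows were. A single window, 0.347%, was shared, where 0.713% of all windows were. These shares are near or below the background and show no excess of contact windows on chromosome 7. In single libraries 28, 16 and 11 windows passed in SS 1 to SS 3, and 22, 31 and 5 in SS13BN 1 to SS13BN 3. The background was 8.85%, 6.85%, 5.36%, 8.36%, 12.1% and 3.26% of all windows in the same order, and on chromosome 7 the shares were 9.72%, 5.56%, 3.82%, 7.64%, 10.8% and 1.74%. The counts rest on single libraries, since leaving out SS 2 gave 9 windows for SS, as did leaving out SS 3. Leaving out SS13BN 3 gave 16 for SS13BN and 3 for both strains.

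All 6 windows that passed in a strain lay beyond 110 Mb. In single libraries, 22 of 28 did so in SS 1, 10 of 16 in SS 2, 10 of 11 in SS 3, 15 of 22 in SS13BN 1, 20 of 31 in SS13BN 2 and 3 of 5 in SS13BN 3. Windows below 30 Mb passed in only 3 libraries, where SS 2 and SS13BN 2 had 3 each and SS13BN 1 had 2.

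The window shared by both strains ran from 140500001 to 141000000, near the distal end. Of its 96 fragments, 31, 25 and 24 were captured in SS 1 to SS 3 and 28, 36 and 23 in SS13BN 1 to SS13BN 3. Its capture ratio was 2.53 ± 0.331 (SD, n = 6), with every library between 2.10 and 2.94, and over the length expectation it was 2.29 ± 0.305. The highest of its adjusted p in the exact binomial test was 0.0110, in SS 3. In this window 9 of 96 fragments, 9.38%, were captured in all 6 libraries, where 1.58% of chromosome 7 and 1.48% of all fragments were. The window was picked for high capture in every library, so a raised share is built in. Among the 9 were a neighbouring pair from 140748110 to 140787584 and another from 140928493 to 140933110. Long fragments were prominent among the 9, with a median of 9703 bp against 2026.5 bp for the 36 fragments captured in none.

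The windows found in SS alone lay close together, from 120000001 to 121000000 and from 121500001 to 122000000. In the window at 120000001, 29, 29 and 25 of 89 fragments were captured in SS, against 17, 33 and 15 in SS13BN. The threshold was missed by SS13BN 1 and by SS13BN 3 (exact binomial adjusted p = 0.0662 and 0.146). The window at 120500001 had 26, 25 and 21 of 77 captured in SS and 26, 26 and 14 in SS13BN, and missed it in SS13BN 3 (exact binomial adjusted p = 0.111). That at 121500001 had 23, 30 and 24 of 102 in SS and 20, 29 and 15 in SS13BN, and missed it in the same library (exact binomial adjusted p = 0.275). SS13BN 3 captured the fewest fragments. For SS13BN alone, the windows were at 126000001 and 128000001. At 126000001, 20, 27 and 17 of 88 fragments were captured in SS13BN and 26, 16 and 15 in SS, and at 128000001 there were 23, 35 and 21 of 114 against 29, 18 and 23. Both missed the threshold in SS 2 and SS 3, with exact binomial adjusted p from 0.0962 to 0.430. In the strain test described below, none of these 5 windows passed (limma adjusted p = 0.999 for each). The strains did not overlap in the window at 120000001, with ratios of 2.36 to 3.26 in SS and 1.92 to 2.13 in SS13BN. The log2 difference was -0.44 (SE 0.21). That window was picked because it passed in SS alone, which favours higher values in SS. Among all windows tested between strains, 7.80% had no overlap of the strains.

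By mean capture ratio over all 6 libraries, the highest windows of at least 30 fragments started at 120500001, 140500001, 115500001, 129500001 and 120000001, with 2.62 ± 0.616, 2.53 ± 0.331, 2.44 ± 0.668, 2.40 ± 0.714 and 2.37 ± 0.514 (SD, n = 6). Their order is within the spread between libraries. The windows at 115500001 and 129500001 were no contact windows in either strain. They were highest in the libraries numbered 1 of both strains. At 115500001, the ratio was 3.39 in SS 1 and 3.09 in SS13BN 1, and 1.8 to 2.45 in the other 4. At 129500001, it was 3.33 and 3.26 in those libraries and 1.77 to 2.18 in the others. What the replicate number stands for is not given in the labels.

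**Figure D4:**
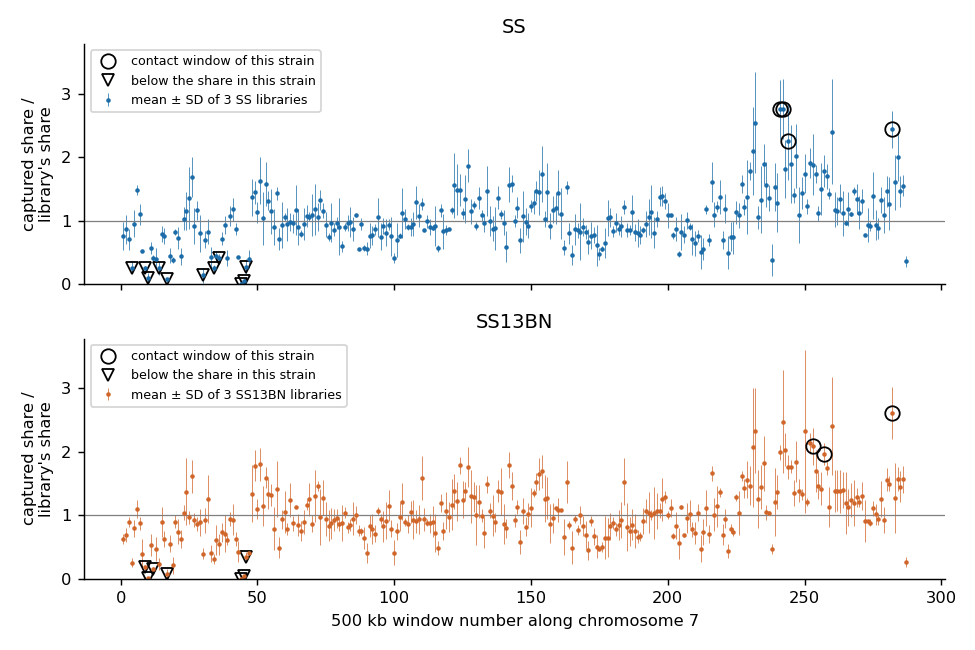
Capture ratio of each 500 kb window with at least 30 fragments along chromosome 7, as mean ± SD of 3 libraries, SS above and SS13BN below. Circles mark the 4 contact windows of SS and the 3 of SS13BN, all at the distal end, and triangles mark the windows below the library's share, 11 in SS and 7 in SS13BN, all at the proximal end.

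The lower tail of the same test, added after seeing the data, gave windows of scarce contact. On chromosome 7, 11 windows were below the library's share in all 3 SS libraries, or 3.82%, where 2.68% of all windows were. In SS13BN 7 were, or 2.43%, where 2.23% of all windows were, and 6 were in both, or 2.08%, where 1.89% were. Without SS13BN 1 that strain had 11 such windows, and without SS13BN 3 it had 18. The shares are close to the background, and the place was uneven, since all of these windows started between 1500001 and 22500001.

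The windows with the lowest capture ratios started at 21500001, 22000001, 4500001, 8000001 and 4000001, and each was low in every library. In the window from 21500001 to 22000000, 0 of 117 fragments were captured in any library, which allows a share of up to 2.56% in each (3 counts of 117). From 22000001, 0 to 5 of 364 fragments were captured per library, from 4500001 0 to 3 of 155, from 8000001 0 to 3 of 151, and from 4000001 2 to 5 of 145. The highest mean ratio of these 5 was 0.225 ± 0.0473 (SD, n = 6). Both empty stretches of the chromosome with the most fragments lay at this place. One ran from 22222277 to 22523155 and held 401 fragments captured in no library, with a median length of 93 bp and the longest at 133666 bp. The other ran from 21389026 to 22164641 with 212 fragments, and their median of 2167.5 bp is close to that of the whole chromosome. How many fragments of these stretches a read could be assigned to is not given in the sources used here, and its part in the result was not tested.

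The deposited scores are shown next on their own scale, in which chromosome 7 is compared with itself. The captured states were recovered from these scores, so a like picture is built in and adds no support. A score of at least 3 in all 6 libraries was found for 2349 fragments, 5.80% of the chromosome, in 44 stretches, where 3.89% of all fragments reached it. Of these fragments, 2132 lay beyond 110 Mb, in 37 stretches. The longest stretch ran from 119923139 to 122765676, with 584 fragments over 2843 kb, and its highest scores were 10.0, 12.5 and 8.45 in SS 1 to SS 3 and 9.87, 10.3 and 5.97 in SS13BN 1 to SS13BN 3. Next were the stretches from 124657133 to 126674134 with 392 fragments, from 114444653 to 115549789 with 247, from 128528333 to 129299627 with 174 and from 141099960 to 141899090 with 168. In the stretch from 114444653, the libraries numbered 1 peaked at 11.4 and 10.0 and the others at 4.55 to 5.29. The running window spreads each contact over its neighbours, so bounds of stretches are not bounds of contacts. The highest score of each library on chromosome 7 lay between 114654057 and 125751995, and the lowest, from -9.73 to -6.58, between 22195586 and 22400846.

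The 7 stretches below 110 Mb fell at 2 places, which are named here after their values were seen. Those from 24532171 to 24699680 lay beyond the empty place, and those from 75534702 to 76435762 were in the middle of the chromosome. In the 500 kb window at 75500001 the capture ratio was 1.5 ± 0.136 (SD, n = 6), from 1.31 to 1.68, and in its neighbours at 75000001 and 76000001 it was 1.32 ± 0.128 and 1.55 ± 0.300. In the window at 24500001 it was 1.11 ± 0.149, from 0.935 to 1.28, and in its neighbours at 24000001 and 25000001 it was 1.62 ± 0.266 and 1.72 ± 0.301. The window that holds the stretches near 24500001 thus stood lower than those on both sides of it, which the score of a fragment also takes in.

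Most captured fragments of chromosome 7 were seen once. Of the 40534 fragments, 25870, or 63.8%, were captured in no library, where 63.0% of all fragments were, and 8014 in 1 library alone. In all 6 libraries 639 were captured, or 1.58%, where 1.48% of all fragments were, and the share was 1.38% below the midpoint and 1.79% above it. Fragments captured in all 6 had a median length of 4789 bp and those captured in none 1869 bp. The longest run of fragments captured in all 6 libraries held 4 fragments, from 115776591 to 115790756, in the window that starts at 115500001.

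Between strains, no window of chromosome 7 passed. The test was limma with an intensity trend on log2 captured fragments, fitted on all windows with a mean of at least 1. Of 286 windows tested on chromosome 7, 0 passed Benjamini-Hochberg adjusted p 0.05, and of all 5296 windows 0 passed too, 0.00%. An unadjusted limma p under 0.05 was found in 6 windows of chromosome 7, against 3.02% of all windows. The strains did not overlap in 22 of the 286 windows, against 7.80% of all. The 95% interval of a window's log2 difference reached 0.52 to either side in the median, before any adjustment for the number of windows. Smaller differences were not detectable in a typical window. Larger ones could also fail after adjustment, as did -1.15 and 1.27 in the windows from 5500001 and 14500001 (limma adjusted p = 0.999).

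The windows with the smallest p were the following. From 5500001, 8, 8 and 8 of 170 fragments were captured in SS and 3, 5 and 2 in SS13BN, which gave -1.15 on the log2 scale, SS13BN relative to SS (SE 0.42, limma adjusted p = 0.999). From 14500001, the numbers were 1, 1 and 4 of 124 in SS and 6, 7 and 4 in SS13BN, a difference of 1.27 (SE 0.50, limma adjusted p = 0.999). From 88500001, they were 24, 11 and 20 of 151 in SS and 15, 11 and 7 in SS13BN, a difference of -0.69 (SE 0.30, limma adjusted p = 0.999). The first pair are windows of scarce contact, where a few fragments set the difference, and at 88500001 the strains overlapped in capture ratio, 0.729 to 1.29 against 0.418 to 1.0.

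Broader shifts were not found either. Of the 15 bins of 10 Mb, 0 passed limma adjusted p 0.05, as did 0.00% of 282 bins of all chromosomes, and 0 had an unadjusted p under 0.05, against 0.355% of all bins. The strains overlapped in each of the 15, where 2.48% of all bins were separated. For these bins the median 95% half-width was 0.15 in log2 units. In the first bin the difference was -0.18 (SE 0.098), and in the bin from 120000001 it was -0.013 (SE 0.078), each with a limma adjusted p of 0.973.

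**Figure D5:**
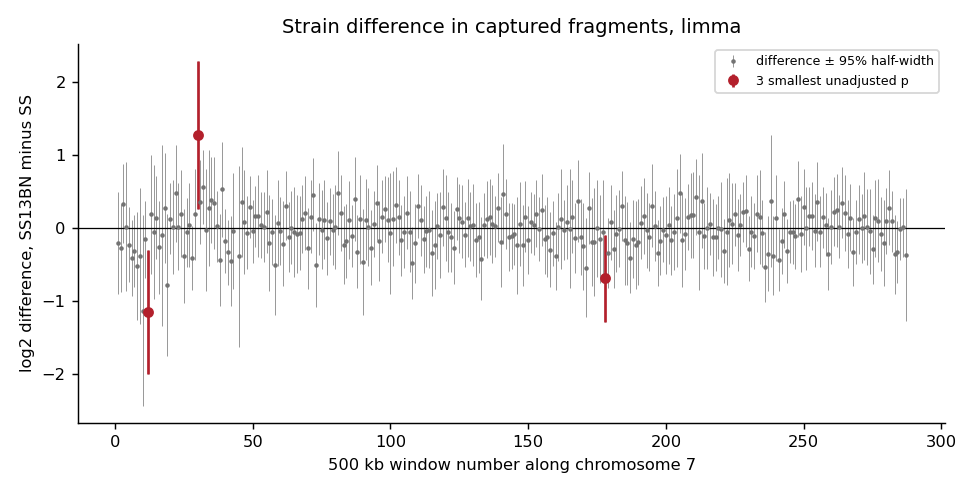
Log2 difference in captured fragments, SS13BN minus SS, for the 286 tested windows of 500 kb along chromosome 7, with 95% half-widths from limma. The 3 windows with the smallest unadjusted p, in red, are at -1.15, 1.27 and -0.69, and 0 windows passed the adjusted threshold.

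Likeness of libraries was compared within and across strains. Over the 287 windows of chromosome 7 with at least 30 fragments, Spearman correlations of captured shares had a mean of 0.712 ± 0.034 (SD) over the 6 same-strain pairs, 0.757 ± 0.022 for the 3 pairs of the same replicate number and 0.724 ± 0.045 for the other 6 pairs. The points share the fragments' lengths and each library's depth, and windows are not independent replicates.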

How the data were processed

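The authors deposited 1 table per library with a score per EcoRI fragment. The submitters' processing notes name rn5 and CASAVA 1.8. No aligner, read filter or scoring program is named in the labels. From the values, each score outside chromosome 13 equals (k - Wp) / sqrt(Wp(1 - p)), with k captured fragments in W = 501, p the captured share of the chromosome, and 250 positions past each end counted as empty. Solving these equations rebuilt 100% of the windows in every library, and the solver and tests were tested on simulated data. Chromosome 13 holds the viewpoint, was scored in another way and was not used. Read numbers are not known on chromosome 7, so depth is given as captured fragments.

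Fragments were assigned to windows by midpoint. Strains were compared with limma 3.58.1 (R 4.3.3) on log2(captured fragments scaled to the mean library total + 1), for windows with a mean of at least 1, over all chromosomes but 13, with Benjamini-Hochberg adjustment and a threshold of 0.05. Scaled folds understate changes of low values. Single values were tested by exact permutation. The expectation from fragment length used 50 length classes. Coordinates of fragments are as the tables give them. Named windows are the contact windows, up to 5 of each strain alone, the 3 with the smallest p, the 5 highest and 5 lowest of at least 30 fragments, the 3 highest and lowest bins and the 5 longest stretches, with others marked as chosen later. The members and lists were chosen with earlier results of these data known. Other tools were scipy 1.17.1, statsmodels 0.14.6, pandas 2.3.3, numpy 2.4.6 and matplotlib 3.10.9 under Python 3.11.15. Alternatives were window length, filters, pseudocounts, scaling, thresholds, the replicate block and leaving out libraries.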

Additional observations from a re-analysis of the deposited data

How the results depend on the processing

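Of the 138 values recomputed under alternatives for the main results, 117 kept their direction, their side of the threshold and, for counts, a size within 1.5 times. Part of this was fixed in advance, so the number is no measure of robustness. The exact permutation tests between strains, with a library left out or in 1 strain alone cannot give a p under 0.05. Leaving out a library of 1 strain cannot alter the window count of the other strain. The strain tests of windows and bins gave 0 on chromosome 7 under all settings tried, and the signs of the chromosome's level against the other chromosomes and between strains did not turn. With the expectation from fragment length, SS13BN had 1 contact window (0.347%, where 0.881% of all windows were). By that measure SS had 7 windows below the share (2.43%, where 2.18% of all windows were). At adjusted p under 0.01, SS had 2 contact windows, SS13BN 1 and both 0. These were 0.694%, 0.347% and 0% of the windows of chromosome 7, where 0.806%, 0.356% and 0.169% of all windows passed. At 0.10, SS13BN had 6 (2.08%, against 2.78% of all windows) and both 2 (0.694%, against 1.43%). With 250 kb windows, of which chromosome 7 had 575, each strain had 1, or 0.174%. Of all such windows 0.414% passed in SS and 0.301% in SS13BN. With 1 Mb windows, 144 on chromosome 7, SS13BN had 7 (4.86%, against 5.26% of all) and both had 4 (2.78%, against 3.28%). With single libraries left out, contact windows numbered 4 to 9 in SS (9 without SS 2 or without SS 3), 3 to 16 in SS13BN (16 without SS13BN 3) and 1 to 3 in both, and windows below the share 7 to 18 in SS13BN (the extra ones without SS13BN 1, 11, or SS13BN 3, 18). A strain with 2 libraries left has an easier rule to meet, and its count cannot drop. With a score of at least 2, 25 stretches held 3943 fragments, and with 4, 16 held 684. Causes other than these constructions were not tested.

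Same-numbered libraries of both strains deviated together only weakly, at r = 0.088, 0.130 and 0.083 over all windows. Among pairs across strains, each library's deviations correlated best with its own number, a hint from the data and not from the design. By captured shares on chromosome 7, SS 1 and SS 3 were closest to SS13BN 2 (Spearman 0.785 and 0.755). With their own number they had 0.779 and 0.734, while SS 2 was closest to its own number, also SS13BN 2, at 0.758. Every SS library was thus closest to SS13BN 2, which captured the most fragments. For SS 2, number and depth cannot be told apart here. With replicate number as a block, 0 windows and 0 bins passed on chromosome 7. An unadjusted limma p under 0.05 was found in 7 of its 286 windows, against 203 of all 5296. The strain difference in relative capture was then -0.00868 (exact permutation p = 0.5). Capture as yes or no per fragment and the 3 libraries per strain limit what could be seen.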
